A study of Mus musculus with 27 samples.

Results

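The contacts described here join one captured stretch of mouse chromosome 2 to the rest of that chromosome in testis. The stretch, called the core, runs from chr2:115200001-117080000 (mm10, 1880 kb, 188 bins of 10 kb). Its partners were all bins of chromosome 2 outside the captured region chr2:114820001-117500000, merged to 500 kb, which gave 360 bins of the 5455 bins of that size in the contact matrices. Of these 360 bins, 353 held a contact in at least 1 library. The 7 others held none, which allows up to 3 contacts per library and bin by counting error. Of those 7, 6 are the first 3 Mb of the assembly, with a coverage of 0. The 7th, chr2:175500001-176000000, had a coverage of 0.00146 of the chromosome's median. With so little coverage, the missing contacts do not show how often the core meets these bins. After bins with low coverage and the 3 bins nearest to the core were set aside, 341 bins entered the profile against distance, 220 toward the centromere and 121 toward the telomere.

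The series holds 27 samples of mouse testis, and 6 capture Hi-C libraries are used here, 3 from wild-type testis and 3 from testis that lacks, on both copies, the boundary of a topologically associating domain, removed with CRISPR-Cas9; such domains are the stretches within which chromatin meets itself most (genotype B396.BOS_hom_KO in the labels; age and strain are not given in the sources used here). In capture Hi-C, cut DNA is ligated to whatever DNA is near it in the nucleus, and the products from chosen regions are pulled out with probes. The bins emptied in the homozygous libraries are not on chromosome 2: 2 adjacent bins of chromosome 4 were nearly empty, chr4:107720001-107730000 (28, 31 and 15 contacts, against 11788, 17571 and 15152 in wild type) and chr4:107730001-107740000. Whether the replicates of a genotype are separate mice is not given in the sources used here, so p-values measure the spread between these libraries, which may be technical. Libraries held 5669898 to 7794641 contacts, and 2632060 to 3320100 of these had an end in the chromosome 2 core. Homozygous replicate 2 stood apart on the telomeric side of chromosome 2, and results that rest on it are given with and without it.

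A chromosome occupies its own territory in the nucleus, so a locus meets distant parts of its own chromosome more often than other chromosomes, and contacts fall off steeply with distance. Within a territory, chromatin sorts into an active, gene-rich compartment and an inactive, gene-poor one, which contact their own kind more than each other. Mouse chromosomes have their centromere at one end, so low coordinates lie near the centromere and high coordinates near the telomere. Whole testis is a mixture of somatic cells and germ cells at every stage, and the contact maps average over them.

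The core itself is poor in protein-coding genes, and its number of annotated genes of all kinds lies below the median of the bins. It overlaps 3 protein-coding genes, BC052040, Meis2, which encodes a homeobox transcription factor of limb, heart and neural development, and Tmco5, and 23 annotated genes of all kinds, 6.12 per 500 kb against a median of 9 and a mean of 11.0 in the 341 bins. For protein-coding genes the figures were 0.798 per 500 kb in the core and a median of 3 in the bins. Each gene counts once for the core, while a gene that spans several bins counts in each of them. To show what kind of gene sits at the core and at the partners furthest above and below the contacts expected at their distance, the 250 bases before the start used in the promoter table are printed for Meis2, for the first protein-coding gene with an entry in each of the 2 bins furthest above that expectation that have one (B3galt1 and Arhgap15), and likewise for the 2 bins furthest below it (6430550D23Rik and Ddx27). They are from RefSeq (GRCm38.p6), 5′ to 3′ on the gene's own strand, with each CG dinucleotide in capitals. For Meis2 and 6430550D23Rik the start used lies 2.92 and 3.70 kb inside the annotated gene.
Meis2: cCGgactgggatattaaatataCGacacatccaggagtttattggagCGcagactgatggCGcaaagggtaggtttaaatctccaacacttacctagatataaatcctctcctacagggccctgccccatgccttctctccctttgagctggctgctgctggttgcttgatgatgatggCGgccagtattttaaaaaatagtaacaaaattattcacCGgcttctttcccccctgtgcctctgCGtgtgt
B3galt1: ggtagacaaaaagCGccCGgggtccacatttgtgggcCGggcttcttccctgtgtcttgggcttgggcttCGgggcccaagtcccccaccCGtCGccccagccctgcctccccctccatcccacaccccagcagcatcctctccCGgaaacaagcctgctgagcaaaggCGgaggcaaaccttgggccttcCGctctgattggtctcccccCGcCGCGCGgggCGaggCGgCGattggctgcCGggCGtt
Arhgap15: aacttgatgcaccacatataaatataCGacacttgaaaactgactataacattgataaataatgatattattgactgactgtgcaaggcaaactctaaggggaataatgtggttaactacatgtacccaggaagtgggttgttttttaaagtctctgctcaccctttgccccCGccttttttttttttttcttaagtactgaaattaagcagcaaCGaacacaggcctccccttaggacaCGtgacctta
6430550D23Rik: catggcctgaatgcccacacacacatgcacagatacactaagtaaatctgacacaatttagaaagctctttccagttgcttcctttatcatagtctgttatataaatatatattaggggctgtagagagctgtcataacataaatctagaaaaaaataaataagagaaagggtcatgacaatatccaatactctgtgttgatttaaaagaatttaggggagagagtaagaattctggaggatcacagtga
Ddx27: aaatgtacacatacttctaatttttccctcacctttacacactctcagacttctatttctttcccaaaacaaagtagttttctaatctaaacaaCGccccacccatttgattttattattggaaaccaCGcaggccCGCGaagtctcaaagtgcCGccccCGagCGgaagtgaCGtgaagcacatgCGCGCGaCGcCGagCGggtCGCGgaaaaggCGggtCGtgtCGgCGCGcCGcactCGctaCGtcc
These lie at chr2:116064620-116064869 (minus strand), chr2:67565439-67565688 (plus), chr2:43748574-43748823 (plus), chr2:156004428-156004677 (minus) and chr2:167015063-167015312 (plus). They hold 7, 18, 4, 0 and 24 CG, so each pair of partner bins shows 1 promoter above and 1 below the median of 6 CG per 250 bases over the 32851 promoters of the table. At least 10 CG were held by 37.8% of those promoters, by 3 of the 19 promoters in the 10 bins furthest above expectation and by 66 of the 146 promoters in the 10 furthest below.

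A large share of the core's contacts left the captured region but stayed on the chromosome. These far contacts made up 38.4%, 37.3% and 37.3% of all contacts of the core in wild type, then 39.0%, 38.6% and 38.5% in homozygous testis. Contacts within the region took 45.3% to 47.8% per library, and contacts with all other chromosomes 14.9% to 15.7%. Per 500 kb, the core made 3183, 3233 and 3672 contacts with its own chromosome in wild type, then 3041, 3758 and 3771 in homozygous testis, against 95.2, 98.1, 115.5, 92.5, 111.0 and 112.4 in the same libraries with the other autosomes. The log2 ratio of those levels was 5.03 ± 0.04 in wild type, 5.06 ± 0.02 in homozygous testis (SD, n = 3 each), and the groups overlapped. In every library each of the 341 bins lay above the mean level of other autosomes. The lowest bin of a library reached 2.31 to 2.99 times that level, the median bin 8.36 to 9.62 times and the highest 471 to 485 times. A bin at the far end of the chromosome was thus still contacted more than an average bin of another chromosome.

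**Figure D1:**
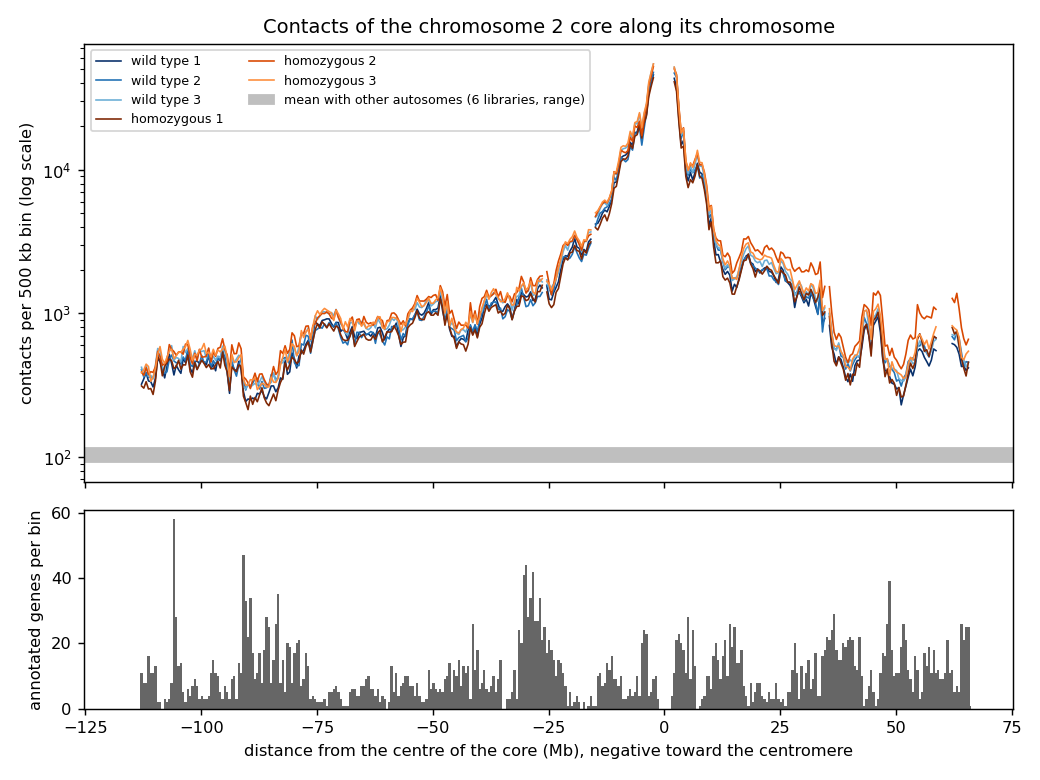
Contacts of the core with each 500 kb bin of chromosome 2 on a log scale in the 6 libraries (upper panel) and annotated genes per bin (lower panel), against distance from the core's centre. Lines break where a bin was set aside, and the grey band spans the mean contacts per 500 kb with other autosomes, 92.5 to 115.5, below which no bin in the fit falls.

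Close to the region the contacts were dense on both sides. The bin chr2:114000001-114500000, which holds Gjd2, Actc1 (cardiac actin), Aqr and Zfp770 at 1.89 Mb from the core's centre, made 67081 ± 5835 contacts (SD, n = 6). The bin chr2:117500001-118000000 on the other side, at 1.61 Mb and without a protein-coding gene, made 68440.2 ± 6542 (SD, n = 6). Farther out the bins chr2:113500001-114000000 (Fmn1, Grem1, Scg5, Arhgap11a) and chr2:113000001-113500000 (Ryr3, Tmco5b, Fmn1) made 49710.3 ± 4679 and 42985 ± 3987 contacts (SD, n = 6). On the telomeric side chr2:118000001-118500000 (Thbs1, Fsip1, Gpr176, Eif2ak4, Srp14) made 47496 ± 4562, and chr2:118500001-119000000, a gene-dense bin with the mitotic checkpoint gene Bub1b, made 42007 ± 4580 (SD, n = 6). One bin further, chr2:119000001-119500000, with 23 genes that include the kinetochore gene Knl1, made 25134 ± 2524 (SD, n = 6), while the bin cut short by the region, chr2:114500001-115000000 with Dph6, made 43644 ± 3918 from its 32 remaining bins of 10 kb. Most far contacts were thus made within 10 Mb. Bins up to 2 Mb from the core's centre held 15.4% ± 0.396 (SD, n = 6) of the far contacts, those from 2 to 10 Mb 51.7% ± 0.848, those from 10 to 30 Mb 18.4% ± 0.461, those from 30 to 60 Mb 8.91% ± 0.576 and those beyond 60 Mb 5.56% ± 0.127.

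Contacts fell with distance at a rate that depended on the range and on the correction for coverage. A bin's coverage here is its number of contacts that touch neither captured region, relative to the chromosome's median. It was taken as a measure of how well the bin is seen, which was not tested. Coverage-corrected contacts are contacts divided by it. The decay exponent is the slope of log10 corrected contacts on log10 distance, over distance classes of 0.1 log10 units. Classes ran from 2 Mb, and a class that would pass 60 Mb was left out, so the fit ended short of 60 Mb. The exponent was -1.05, -1.07 and -1.06 in wild type, then -1.04, -0.99 and -1.05 in homozygous testis. With raw contacts it was steeper, -1.40 on average (-1.42 to -1.34), and the 8 bins nearest the region had a coverage of 2.25 to 2.86 times the median. Between 2 and 20 Mb the corrected exponent averaged -0.90 and between 10 and 100 Mb -1.05, while from 6 to 60 Mb it was -1.30 to -1.20 in the 6 libraries. Over that last range it could be set beside that of a second captured place, the 850 kb core on chromosome 4 (chr4:107110001-107960000, which holds the deletion) with the bins of its own chromosome. The corrected exponent of the chromosome 2 core was higher by 0.08 ± 0.01 (SD, n = 6; exact sign-flip permutation test over the 6 libraries, two-sided p = 0.03125, Benjamini-Hochberg adjusted over 5 measures 0.0391). That sign rests on the correction: with raw contacts the difference was -0.10 in the mean and below 0 in each library, and with coverage taken from contacts between chromosomes only it was -0.0005.

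The fall was uneven and differed between the sides. Toward the centromere, bins made 32558 ± 2934 contacts at 2 to 5 Mb (SD, n = 6), 6055 ± 589 at 10 to 15 Mb, 1209 ± 125 at 30 to 40 Mb, 772 ± 82.4 at 60 to 70 Mb and 454 ± 40.4 at 100 to 120 Mb. Toward the telomere they made 26573 ± 2703 at 2 to 5 Mb (SD, n = 6), 2709 ± 328 at 10 to 15 Mb, 1008 ± 189 at 30 to 40 Mb and 636 ± 163 at 60 to 70 Mb. In 4 places the mean did not fall from one distance class to the next. Toward the centromere it was 914 ± 105 at 40 to 50 Mb and 941 ± 96.7 at 50 to 60 Mb, 772 ± 82.4 at 60 to 70 Mb and 780.1 ± 81.1 at 70 to 80 Mb, and 367 ± 46.3 at 80 to 90 Mb and 462 ± 45.5 at 90 to 100 Mb. Toward the telomere it was 538 ± 125 at 50 to 60 Mb and 636 ± 163 at 60 to 70 Mb, where 8 bins make up the class. The sides were not ordered alike at every distance: at 20 to 30 Mb the telomeric bins made 1964 ± 295 contacts and the centromeric ones 1801 ± 188 (SD, n = 6), higher toward the telomere in 6 of 6 libraries. Averaged over matched distances the centromeric side was contacted more: the log2 ratio of corrected contacts, centromeric over telomeric, was 0.80, 0.67 and 0.78 in wild type, then 0.77, 0.59 and 0.76 in homozygous testis, above 0 in 6 of 6 libraries (mean 0.73 ± 0.08, SD; exact sign-flip permutation p = 0.03125, adjusted 0.0391). With raw contacts it was 0.43 to 0.63.

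**Figure D2:**
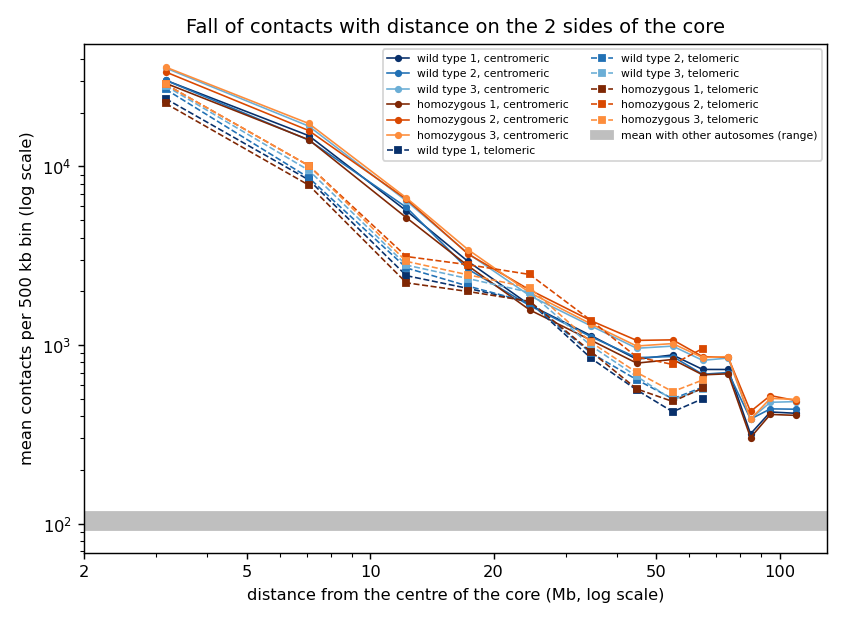
Mean contacts per 500 kb bin in distance classes against distance from the core's centre, both on log scales, for each library, with circles and solid lines toward the centromere and squares and dashed lines toward the telomere. At 10 to 15 Mb the centromeric means lie near 6055 and the telomeric ones near 2709, and both sides stay above the grey band of contacts with other autosomes.

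Apart from the fall with distance, the chromosome was divided into long stretches contacted more or less than their distance predicts. The expectation was a quadratic curve fitted in each library to log2 corrected contacts against log2 distance, and the log2 of observed over expected contacts (O/E) was tested against 0 over the 6 libraries with limma. With an adjusted p under 0.05 and a mean size of at least 0.5, 205 of 341 bins (60.1%) were called, 112 higher (32.8%) and 93 lower (27.3%). Without the size threshold 316 of the 341 bins passed, so the calls rest mainly on that threshold. With raw contacts 95 were called, 36 higher (10.6%) and 59 lower (17.3%). Neighbouring bins resembled each other (Pearson r of O/E 0.93 over 335 adjacent pairs), so the bins are not independent. Runs of at least 4 adjacent called bins with the same sign under raw contacts made 16 stretches of 2 to 9.5 Mb, 10 higher stretches with 88 bins and 6 lower stretches with 71 bins. Each of the 10 higher stretches averaged 1.75 to 7.23 genes per bin, and each of the 6 lower stretches 17.1 to 24.3. Runs that the condition on raw sign left out included gene-dense higher ones, chr2:85500001-87500000 and chr2:88000001-90000000, with 21 to 44 genes per bin. In the first, raw O/E went down to -0.05, and in the second to -0.16.

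The longest higher stretch lay far away, at 67.4 to 76.4 Mb from the core toward the centromere. This stretch, chr2:39500001-49000000, holds 8 protein-coding genes over 19 bins: Lrp1b, a lipoprotein receptor-related gene that spans several bins, Kynu, Arhgap15, Gtdc1, Zeb2, a zinc-finger regulator of the neural crest, Acvr2a, an activin receptor, Orc4 and Mbd5. It made 806, 742 and 899 contacts per bin in wild type, then 750.4, 899 and 938 in homozygous testis, 8.06 times the level of other autosomes, at a mean O/E of 1.07 (0.56 with raw contacts). The lower stretch chr2:152000001-159000000 is nearer, at 36.1 to 42.6 Mb toward the telomere, and is crowded with genes, 18.6 per bin, among them the DNA methyltransferase Dnmt3b, the cell-cycle factor E2f1, the growth factor Gdf5, the kinase Src and the antimicrobial Defb and Bpif families. It made 451, 525 and 538 contacts per bin in wild type, then 440.1, 656 and 546 in homozygous testis, at a mean O/E of -1.59 (-0.97 raw). In each of the 6 libraries the gene-poor stretch was contacted 1.37 to 1.79 times as often as the gene-rich one, although it lies farther from the core.

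Other lower stretches were chr2:25000001-34000000 at 82.4 to 90.9 Mb, with Notch1, Abl1, Tsc1 and the lipocalin genes (327 ± 42.9 contacts per bin, SD, n = 6; O/E -1.29), and chr2:163000001-170500000 at 47.1 to 54.1 Mb, with Hnf4a, Mmp9, Snai1, Cebpb and the seminal and Wfdc protease-inhibitor genes (432 ± 81.4; O/E -1.57). The stretches chr2:118000001-122000000 and chr2:126500001-132500000, at 2.11 to 5.61 Mb and 10.6 to 16.1 Mb, had O/E of -0.78 and -1.01, and chr2:180000001-182000000 at the telomere, with Chrna4 and Eef1a2, had -1.06. Higher stretches close to the core were chr2:105000001-111500000 at 4.89 to 10.9 Mb, with the developmental regulators Pax6 and Wt1, Bdnf and Fshb (14642 ± 1319 contacts per bin, SD, n = 6; O/E 0.84), and chr2:94500001-98000000 with Lrrc4c (2938 ± 311; O/E 0.82). The stretch chr2:98500001-100500000 held no protein-coding gene and had an O/E of 0.76. Farther out, chr2:65500001-68500000 holds the sodium channel cluster Scn1a, Scn2a, Scn3a, Scn7a and Scn9a (1185 ± 127 contacts per bin, SD, n = 6; O/E 0.85), chr2:61000001-65000000 holds Kcnh7, Fign and Tbr1 (O/E 0.88) and chr2:53000001-58500000 holds Nr4a2, Galnt13 and Kcnj3 (O/E 0.76). At the far end, chr2:12500001-17500000 at 98.9 to 103.4 Mb and chr2:6500001-9500000 at 106.9 to 109.4 Mb had O/E of 0.66 and 0.79, and toward the telomere chr2:137500001-139500000 had 0.61. With raw contacts the O/E of each of these stretches was smaller in size. In the order named, the lower ones had -0.58, -0.90, -0.59, -0.76 and -0.34. The higher ones had 0.75, 0.41, 0.18, 0.55, 0.49, 0.28, 0.20, 0.22 and 0.24.

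**Figure D3:**
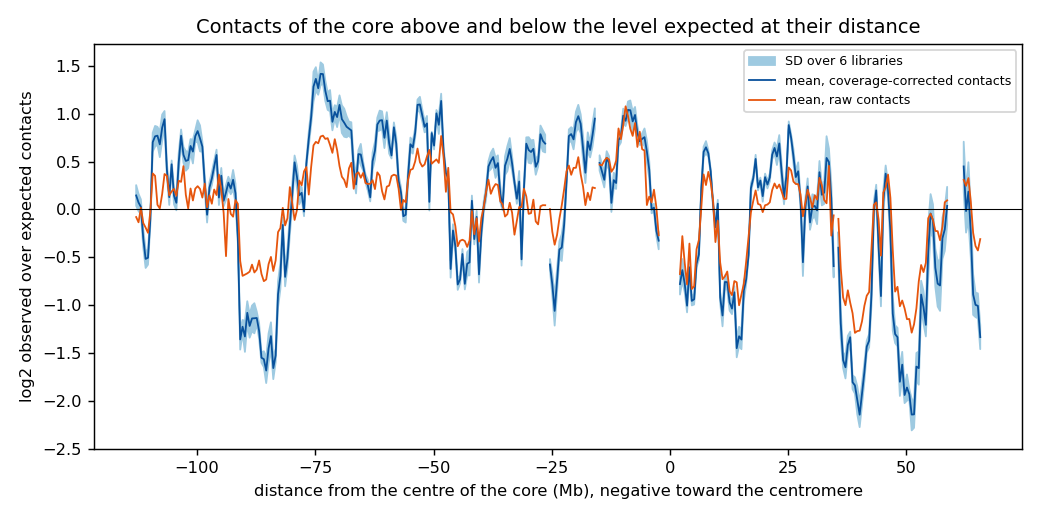
Log2 observed over expected contacts of the core against distance from its centre, as the mean over 6 libraries of coverage-corrected contacts with the SD as a band, and as the mean of raw contacts. The stretch 67.4 to 76.4 Mb toward the centromere stands at 1.07 and the stretch 36.1 to 42.6 Mb toward the telomere at -1.59, and the raw curve has smaller sizes in both.

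Of the 10 bins furthest above expectation in corrected contacts, 8 lay in one block from chr2:40500001-44500000. The rest were the bins of Xirp2 with B3galt1 and of Kcnh7, a potassium channel gene. With raw contacts the 10 had an O/E of 0.49 to 0.77. Bins nearer the core then stood above all of them, such as those of Fshb (0.98) and Wt1 (0.85), so the order rests on the coverage correction. These 10 bins had 1 to 6 genes each and 0 to 2 protein-coding genes, at 48.4 to 75.4 Mb from the core. The first, chr2:42000001-42500000 within Lrp1b, made 894, 789 and 1025 contacts in wild type, then 876, 1000 and 1043 in homozygous testis. The genotypes overlapped there, and its O/E was 1.42 ± 0.12 (SD, n = 6; 0.76 with raw contacts). The bin of B3galt1, a galactosyltransferase gene, and Xirp2, a muscle actin-binding protein gene, at chr2:67500001-68000000 made 1346, 1241 and 1416 contacts in wild type, then 1268, 1562 and 1511 in homozygous testis, 13.4 times the level of other autosomes, at an O/E of 1.13 ± 0.08 (SD, n = 6). Kynu, an enzyme of tryptophan breakdown, and Arhgap15, a GTPase-activating protein, share chr2:43500001-44000000 (942 ± 75.7 contacts, O/E 1.13 ± 0.09, SD, n = 6).

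The 10 bins furthest below expectation fell into 2 blocks, chr2:154500001-157000000 at 38.6 to 40.6 Mb and chr2:165500001-168000000 at 49.6 to 51.6 Mb, with 10 to 26 genes per bin. The lowest, chr2:156000001-156500000, holds 13 protein-coding genes, among them Spag4, a spermatid nuclear-envelope gene, and Nfs1, which makes iron-sulfur clusters. It made 379, 398 and 475 contacts in wild type, then 318, 510 and 403 in homozygous testis (O/E -2.14 ± 0.13, SD, n = 6; -1.27 raw). Next came chr2:167000001-167500000 with Ddx27 and Ptgis (231, 312, 342, 262, 412 and 373 contacts, in the same order; O/E -2.14 ± 0.17) and chr2:167500001-168000000 with Snai1, Cebpb and Ptpn1 (338 ± 64.8 contacts; O/E -2.14 ± 0.14). In each of these 3 bins homozygous replicate 2, the library with the most contacts in all (7794641), had the highest count. In O/E it was the highest library in none of them. The 5 bins of the nearer block averaged 434 ± 58.4 contacts (SD, n = 6), and the 5 centromeric bins at the same distance averaged 1038 ± 113, with 20.6 and 10 genes per bin. Coverage went the other way: it was 1.39 to 1.83 in the 10 lowest bins and 0.621 to 0.747 in the 10 highest; its part in these levels was not tested beyond the raw values. For all 20 bins the raw and corrected O/E had the same sign.

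Across the 341 bins, O/E fell as the number of annotated genes rose. The Spearman correlation between the 2 was -0.66, -0.66 and -0.66 in wild type, then -0.66, -0.67 and -0.68 in homozygous testis, and -0.53 to -0.62 with raw contacts, given as a description since neighbouring bins share their surroundings and all libraries share the bins. Bins with 0 to 5 genes had a median O/E of 0.64 (116 bins, 92.2% above 0), those with 6 to 12 genes 0.19 (113 bins, 66.4%), and those with 13 to 58 genes -0.71 (112 bins, 25.9%). With raw contacts the medians were 0.25, 0.11 and -0.31. Gene number went together with coverage (Spearman correlation 0.60), O/E with coverage gave -0.83 (-0.56 with raw contacts), and coverage is the divisor of the corrected contacts; the median coverage of the 3 classes was 0.769, 1.04 and 1.35, and its part in the size of the corrected relation was not tested beyond the raw values given here. The relation was present on each side: the Spearman correlation averaged -0.62 toward the centromere and -0.77 toward the telomere, and -0.46 and -0.71 with raw contacts.

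Seen from the chromosome 4 core, the correlation of the same bins with gene number had the opposite sign. That core overlaps 29 annotated genes, 17.1 per 500 kb, against 6.12 in the chromosome 2 core. It lies in another chromosome, so no distance term was needed, and its contacts with these bins numbered 143 to 887 per bin over 6 libraries. The Spearman correlation with gene number was 0.37, 0.48 and 0.34 in wild type, then 0.40, 0.50 and 0.46 in homozygous testis, and 0.61 to 0.65 with raw contacts. Coverage itself gave 0.60 with gene number, and its part in the raw values was not tested. Relative to the mean of the bins, the corrected median was -0.33 for bins with 0 to 5 genes. It was 0.17 for 6 to 12 genes and 0.20 for 13 to 58 genes. Between the latter classes it fell from 0.20 to 0.16 in wild-type replicate 1 and rose from 0.16 to 0.35 in homozygous replicate 2. The contrast, the Spearman correlation from the chromosome 2 core minus that from the chromosome 4 core, was -1.09 ± 0.07 (SD, n = 6), below 0 in 6 of 6 libraries (exact sign-flip permutation p = 0.03125, the smallest that 6 libraries allow; adjusted 0.0391), and -1.21 with raw contacts. The profiles of the 2 cores over these bins were themselves inversely ordered (Spearman correlation -0.65, and -0.64 with raw contacts). The 2 cores differ in gene number and also in kind of contact, within the chromosome or between chromosomes. These differences cannot be told apart here.

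**Figure D4:**
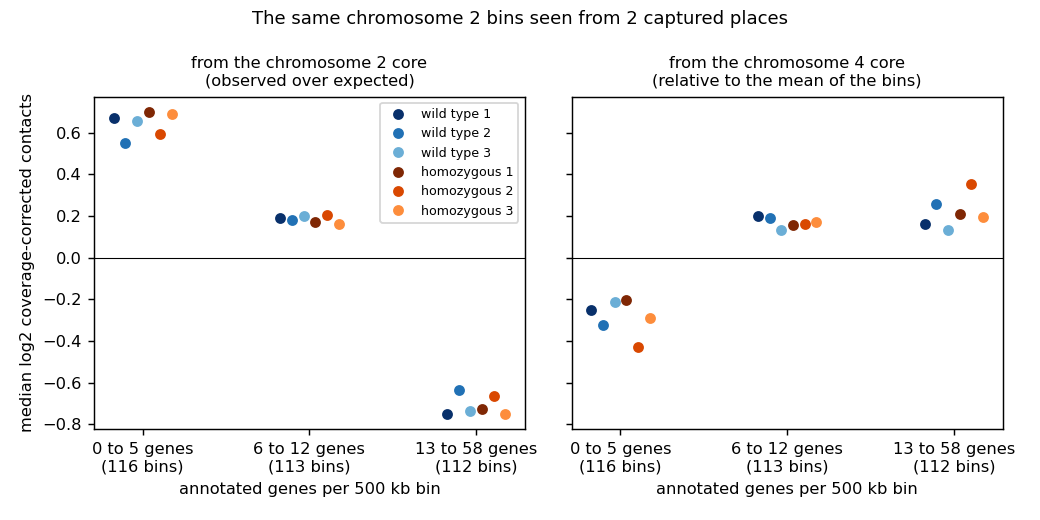
Median log2 coverage-corrected contacts of chromosome 2 bins in 3 classes of gene number, 1 point per library, seen from the chromosome 2 core (left, relative to the distance expectation) and from the chromosome 4 core (right, relative to the mean of the bins). From the left core the medians fall from about 0.64 to -0.71. From the right core they lie below 0 in the class with fewest genes and above 0 in the other classes in all 6 libraries.

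The olfactory receptor clusters were gene-dense bins, and none of them was called lower. These receptors, expressed singly in sensory neurons, form tandem arrays on chromosome 2, and 377 genes so named lie in 17 bins, of which 16 entered the profile. Of these 16 bins 9 were called higher and 0 lower by limma, against 32.8% higher and 27.3% lower over all bins. The lowest O/E among the 16 was -0.00071, at a median O/E of 0.55 and a median of 25.5 genes per bin. With raw contacts the median was 0.04, against 0.09 over all bins. The 9 bins called higher then had an O/E of -0.16 to 0.14, each under the size threshold, while 10.6% of all bins were called higher with raw contacts. In the largest cluster, chr2:85500001-86000000 had 41 genes and made 1469 ± 167 contacts (O/E 0.69 ± 0.07, SD, n = 6; 0.14 raw), and chr2:88500001-89000000 had 27 genes and an O/E of 0.79 ± 0.09 (0.03 raw). Without the 14 bins of at least 10 such genes, the Spearman correlation of corrected O/E with gene number was -0.76 on average (-0.77 to -0.74, 327 bins).

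Developmental transcription factor genes did not share a level. Their 30 genes fill 21 bins of the profile beside the bin of Meis2 in the core, of which 3 were called higher and 8 lower (32.8% and 27.3% over all bins), at a median O/E of -0.22 (-0.05 raw), against 0.20 (0.09 raw) for all bins. These bins hold a median of 13 genes, against 9 over all bins. The higher ones were the bins of Wt1 (O/E 0.73 ± 0.07, SD, n = 6; 8873 ± 918 contacts), Pax6 (0.76 ± 0.06; 8770 ± 785) and Tbr1 (0.65 ± 0.06; 979 ± 101). Lower ones included the bins of Sall4, a stem-cell factor (-1.66 ± 0.17), Foxs1 (-1.57 ± 0.08), Lhx3 (-1.33 ± 0.16), Barhl1 (-1.13 ± 0.07), Tfap2c, a germ-cell factor (-0.78 ± 0.24), and Dlx1 with Dlx2 (-0.73 ± 0.04, SD, n = 6). The Hoxd cluster with Evx2 had an O/E of -0.31 ± 0.06 (SD, n = 6; -0.26 raw; 800.2 ± 85.3 contacts), under the size threshold. At finer scale, the 30 kb around 22 promoters of this list were set against the flanks 50 to 250 kb away. The ratio of the core's raw contacts ranged from 0.820 (Nkx2-4) to 1.25 (Tbr1), with a median of 1.03, and the coverage ratio of the same windows had a median of 1.09. Tbr1 rested on 430 contacts and varied between libraries from 0.735 to 1.58, with a coverage ratio of 1.37. Pax6, the best covered by contacts (3891), stood at 1.21 ± 0.13 (SD, n = 6), with a coverage ratio of 1.26.

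Of the spermatogenesis and meiosis genes, 16 of the 19 listed lie on chromosome 2, in 14 bins. Of these bins, 2 were called higher and 7 lower, against 32.8% and 27.3% over all bins. The median O/E was -0.52 (-0.16 raw), against 0.20 (0.09 raw) for all bins. These bins hold a median of 14 genes, against 9 over all bins, and the part of gene number in their level was not tested. The higher bins were those of Fshb, a pituitary hormone subunit (1.04 ± 0.09, SD, n = 6; 13036 ± 1175 contacts), and Kif18a, a mitotic kinesin needed by germ cells (0.80 ± 0.08; 15338 ± 1356). The lower bins held Spag4 (-2.14 ± 0.13), Dnmt3b (-1.41 ± 0.09), Fsip1 (-0.78 ± 0.11), Spo11, which makes the meiotic breaks (-0.78 ± 0.24), Knl1 (-0.77 ± 0.09), the checkpoint kinase Bub1 (-0.76 ± 0.07) and Bub1b (-0.63 ± 0.12, SD, n = 6). With raw contacts these lower bins had -1.27, -0.84, -0.68, -0.23, -0.56, -0.70 and -0.28 in the same order. The bins of Fshb and Kif18a had 0.98 and 0.65. The bins of Meig1 (0.15 ± 0.11), of the cystatins Cst8, Cst11 and Cst12 (0.18 ± 0.12) and of Sycp2, a synaptonemal complex gene (0.45 ± 0.26, SD, n = 6), stayed under the size threshold. So did those of Fsip2 (0.48 ± 0.08) and Rad21l (-0.40 ± 0.16, SD, n = 6).

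Promoter sequence went with the profile in the same direction as gene number. Over the 303 bins with a promoter entry, the Spearman correlation between O/E and the mean number of CG per promoter was -0.47 to -0.42 in the 6 libraries, and with GC content -0.50 to -0.46; with raw contacts these were -0.32 and -0.36. In the 10 bins furthest above expectation the median promoter held 4 CG at 41.6% GC, and in the 10 furthest below 9 CG at 56.6% GC. A match of CG counts is a property of these windows and not evidence of a site, and the printed promoters of B3galt1, rich in CG in a bin above expectation, and 6430550D23Rik, without CG in the bin furthest below, are exceptions to the order of the medians.

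The left and right parts of the core, split at chr2:116140000, had similar profiles. The left part, with Meis2 and BC052040, made 560698 to 693039 far contacts per library and the right part 466066 to 581735. Their O/E profiles correlated at r = 0.984 to 0.990 within a library over 339 bins. The Spearman correlation with gene number differed by 0.002 ± 0.010 (left minus right, SD, n = 6; positive in 4 of 6 libraries; exact sign-flip permutation p = 0.53125, adjusted 0.53125), a range from -0.010 to 0.017. The decay exponent of the left part was higher by 0.010 ± 0.007 (SD, n = 6), in 6 of 6 libraries (exact sign-flip permutation p = 0.03125, adjusted 0.0391). With coverage from contacts between chromosomes only the difference was 0.005 and missed the threshold (exact permutation p = 0.0938).

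The 6 libraries gave nearly the same profile. Pairwise correlations of O/E over the 341 bins ran from 0.972 to 0.996, and from 0.989 without homozygous replicate 2. A bin held 214 to 54544 contacts in a library, with a median of 917. The median coefficient of variation of a bin's share over the 6 libraries was 6.10%, against 3.31% from counting alone, and 4.98% without homozygous replicate 2. It was 5.20% beyond 30 Mb toward the centromere and 13.3% beyond 30 Mb toward the telomere, where the libraries differed most.

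The core's contacts along chromosome 2 were then compared between genotypes. The far share was higher in homozygous testis by 1.03 percentage points, 38.7% ± 0.257 against 37.7% ± 0.616 (SD, n = 3 each), without overlap; the exact permutation p was 0.1, the smallest that 3 against 3 allow, and 0.167 after adjustment over 5 measures. As a share of the contacts that leave the region, the difference was 0.444 percentage points (exact permutation p = 0.4). The decay exponent was -1.03 ± 0.04 in homozygous testis and -1.06 ± 0.01 in wild type (SD, n = 3 each; exact permutation p = 0.1, adjusted 0.167), and without homozygous replicate 2 the difference of 0.034 became 0.014; it was 0.021 from 2 to 20 Mb and 0.017 from 10 to 100 Mb. The Spearman correlation with gene number differed between genotypes by -0.007 (exact permutation p = 0.1, adjusted 0.167), but by -0.002 with raw contacts and -0.001 with no coverage minimum (exact permutation p = 0.9 for each), and by -0.004 without homozygous replicate 3. By the same exact test the ratio of the sides differed by -0.04 (p = 0.5, adjusted 0.5) and the log2 level over other autosomes by 0.03 (p = 0.3, adjusted 0.375), which was 0.01 without wild-type replicate 3 and 0.05 without wild-type replicate 1. With edgeR's quasi-likelihood test 0 of 352 bins (0%) passed an adjusted p of 0.05, although the unadjusted p was under 0.05 in 36 bins, while DESeq2 called 1. Without homozygous replicate 3 edgeR called 28 bins, 27 of them higher in homozygous testis, and without homozygous replicate 2 it called 1. The 3 bins with the smallest p were chr2:149000001-149500000 (Cst10, a cystatin gene), chr2:176500001-177000000 and chr2:177500001-178000000. The first made 993, 983 and 1216 contacts in wild type, then 1294, 1900 and 1396 in homozygous testis, without overlap (log2 change 0.42 ± 0.08 SE, adjusted p 0.133 with edgeR). It was the bin DESeq2 called (log2 change 0.42, adjusted p 0.00256). The other two lie in a zinc-finger gene cluster of little coverage (0.0117 and 0.111), where the first of them reached 12, 10 and 13 contacts in wild type against 23, 32 and 23 in the homozygous libraries (log2 change 1.04 ± 0.25 SE, adjusted p 0.258 with edgeR).

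With the replicate number as a block, as same-numbered libraries deviated together from their genotype's mean, edgeR called 16 of 352 bins (4.55%), all higher in homozygous testis and all on the telomeric side, with log2 changes of 0.19 to 0.41. They lie between chr2:143000001-180000000, at 27.1 to 63.6 Mb from the core. Genes of these bins are named after their values were seen. Of the 16, 9 lie in 2 runs toward the telomere, with the growth factor Bmp7, Spo11, Tfap2c, Ctcfl (the testis paralogue of CTCF), the imprinted Gnas and Edn3 in the first and Sycp2, Cdh4 and Taf4 in the second. In shares of the far contacts, homozygous replicate 2 was the highest library in 16 of the 16 bins, and the genotypes were fully separated in 7 of them. In the bin of Bmp7, Spo11 and Tfap2c, contacts per 100000 far contacts were 43.1, 48.4 and 43.1 in wild type, then 54.4, 75.3 and 51.1 in homozygous testis (log2 change 0.38, adjusted p 0.0103 with edgeR and the block). With both libraries numbered 2 left out the blocked edgeR fit called 10 of the 16, and all 16 kept a higher fitted level in homozygous testis.

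The share of the core's far contacts that fell beyond 30 Mb toward the telomere shows how the libraries differ there. It was 3.66%, 4.03% and 3.73% in wild type, then 4.16%, 5.19% and 3.87% in homozygous testis, that is 1.14, 1.29 and 1.04 times the wild-type library of the same number. Replicate 2 was the highest of each genotype, and homozygous replicate 3 lay below wild-type replicate 2. In the last window, 50 to 66 Mb away, homozygous replicate 2 stood at 1.50 times the wild-type mean, replicate 1 at 1.14 and replicate 3 at 1.03, while wild-type libraries spanned 0.951 to 1.10. Over the 73 bins beyond 30 Mb, the coverage in homozygous libraries was 0.942, 0.952 and 0.992 times that of the same-numbered wild type, and the contacts of the chromosome 4 core 1.02, 1.02 and 1.04 times. On the centromeric side beyond 30 Mb the homozygous libraries stayed within 0.992 to 1.05 of the wild-type mean. This was described from the profile and is given with no test.

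**Figure D5:**
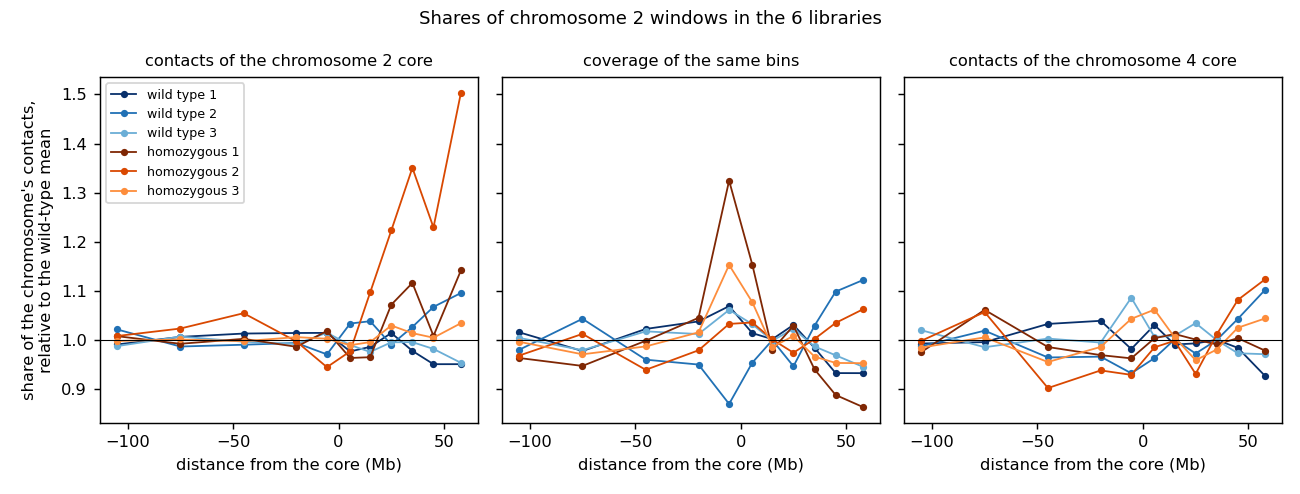
Share of each library's contacts in windows of chromosome 2, relative to the wild-type mean, against the window's distance from the core, for contacts of the chromosome 2 core (left), coverage (middle) and contacts of the chromosome 4 core (right). In the left panel homozygous replicate 2 rises to 1.50 in the window 50 to 66 Mb toward the telomere; the coverage and the chromosome 4 core show for that library 1.06 and 1.12 in the same window, and wild-type replicate 2 shows 1.12 and 1.10.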

How the data were processed

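Capture Hi-C of mouse testis was used (Arima kit and SureSelect enrichment, per the labels' protocols). The authors deposited contact counts of 10 kb bin pairs, whole numbers with no normalization; mm10 is named in the submitters' processing notes, and aligner, filters and binning are not given in the sources used here. Library totals were 5669898 to 7794641. ChIP-seq and RNA-seq tables were not used here. Contacts with an end in the core were summed per library and 500 kb bin; contacts within the core counted once. Coverage of a bin was the sum over libraries of its contacts touching neither captured region, over the chromosome's median; bins under 0.5 were left out of the profile. Gene numbers and promoters are RefSeq (GRCm38.p6). O/E used a pseudocount of 0.5. The chromosome 4 core was the longest run of bins in its captured region, short gaps allowed, with total contacts of at least 20% of the 95th percentile there.

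Single values were compared with exact permutation tests (3 against 3 libraries, or sign flips over the 6), two-sided, adjusted by Benjamini-Hochberg over 5 measures each. Bins averaging at least 10 contacts were compared between genotypes with edgeR 4.0.16 (TMM, quasi-likelihood) and DESeq2 1.42.0, and O/E was tested with limma 3.58.1 (R 4.3.3), threshold 0.05 adjusted. The fits were also run on simulated data. Its bins were independent and its counts varied less between libraries than the real ones, so it does not show what the genotype comparison could detect here. Same-numbered wild-type and homozygous libraries deviated together from their group means (correlations over bins 0.51, 0.56 and 0.24 for numbers 1, 2 and 3), all over 0.1, so the replicate number in the labels was taken to pair them. Pairs of unlike number ran from -0.55 to 0.28, and wild-type replicate 3 correlated more with homozygous replicate 1 (0.28) than with replicate 3. Regions named are the 10 highest and 10 lowest called bins with 1 sign in 6 libraries, the 4 bins nearest the region on either side, the 3 bins with the smallest genotype p, and the bins of 3 gene lists (developmental factors, spermatogenesis, olfactory receptors); stretches were described beside them. The members and lists were chosen with earlier results of these data known. Intervals and limits cover counting error only. Alternatives were raw contacts, other coverage, bin sizes, expectations, thresholds and normalization, single sides, and leaving out each library.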

Additional observations from a re-analysis of the deposited data

How the results depend on the processing

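With the replicate block, the genotype comparison of bins gave 16 calls in place of 0, with DESeq2 1, with the library total in place of TMM 6, and with bins of 250 kb 14. With each library left out in turn it gave 0 to 28, the 28 without homozygous replicate 3 (27 higher, 1 lower) and 1 without homozygous replicate 2. Chosen after seeing the data, the distance trend as an offset with the block gave 23 and the block without both libraries numbered 2 gave 10. The block changed no other genotype call; the paired sign-flip cannot go below 0.25. The count against the distance expectation was 95 with raw contacts, 316 with no size threshold and 68 with a size threshold of 1, against 205. The exponent difference from the chromosome 4 core was -0.10 with raw contacts (exact permutation p = 0.03125) and -0.00049 with coverage from contacts between chromosomes only. That coverage also gave -0.00043 for the difference of the parts in Spearman correlation with gene number and 0.0053 for the exponent difference of the core's 2 parts. The genotype difference of that correlation was 0.013 on the telomeric side alone. Leaving out 1 library leaves a sign-flip test of 5, whose smallest p is 0.0625, so those calls end by construction: the side ratio then was 0.72 to 0.74, the viewpoint contrast -1.10 to -1.08, the exponent difference from the chromosome 4 core 0.073 to 0.088, and that of the 2 parts 0.0093 to 0.011. The parts' correlation difference was -0.0015 to 0.0044 and the genotype difference of the side ratio -0.084 to 0.014, above 0 without homozygous replicate 2. Of 220 values of the 20 named bins under the alternatives, 219 kept their call and 1 fell under the size threshold, and 0 changed sign. The cause was not tested except as stated. Depth limits bins of low coverage most, such as those of the zinc-finger cluster.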
